A study of Mus musculus with 2 samples.

Results

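The first day of testis culture with MEK1/2 blocked was compared with testis that had not been cultured. The members were 8 of the 40 libraries of gonadal somatic cells in the gene count table. They were chosen by label, 4 XY libraries cultured for 24 h with the MEK1/2 inhibitor PD0325901 (MEKi, 500 nM) against 4 XY libraries taken at embryonic day 12.5 (E12.5) without culture or treatment, all 8 from library set 3. The question is which changes of the first day in culture still took place when MEK was blocked. A further 4 XY libraries of set 3, cultured for 24 h with DMSO, the solvent of the inhibitor, give the same interval without MEKi. All embryos were wild type and came from crosses of males carrying *Oct4*-eGFP, on a 129T2svJ background, with Swiss females. Gonads were cultured with the mesonephros attached, the mesonephros was then removed, 6 to 15 gonads were pooled per sample, and GFP-negative cells were sorted. GFP marks the germ cells in this line, so the sort holds every gonadal cell type that lacks it. The uncultured gonads had neither culture nor DMSO, so against them culture, age, solvent and inhibitor cannot be told apart, and the part of the inhibitor was read from MEKi against DMSO.

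MEK1 and MEK2 are the kinases that phosphorylate ERK1 and ERK2. They pass on signals from receptor tyrosine kinases such as the FGF, PDGF and VEGF receptors, and active ERK switches on a set of quickly induced genes and its own inhibitors. In the foetal testis at this stage Sertoli cells enclose the germ cells in cords, while the interstitium holds progenitors, foetal Leydig cells that make androgens, a growing endothelium with its pericytes, and macrophages.

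Transcripts were counted from their 3′ ends with unique molecular identifiers (UMIs), and values are CPM, counts scaled to a common library size with TMM factors, which compare libraries for 1 gene and not genes with each other. Total counts were 1560113 to 2843558 with MEKi, 1886444 to 2401116 in uncultured cells and 2605556 to 4836550 with DMSO. Mitochondrially encoded genes took 1.34 to 1.61% of counts with MEKi, 1.45 to 1.62% in uncultured cells and 1 to 1.31% with DMSO. Of 11 early gonad transcription factors tested, among them *Wt1* and *Nr5a1*, none was called with MEKi, and *Nr5a1* was called lower with DMSO. The Sertoli, foetal Leydig, interstitial and endothelial marker lists each summed to 575 CPM or more in every uncultured library. Red cell transcripts were more abundant. The erythroid list summed to 15321 to 19412 CPM in uncultured libraries, 3408 to 8514 with MEKi and 2758 to 8087 with DMSO. Since these are bulk samples, fewer cells of a type and less RNA per cell cannot be told apart.

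Genes were called differentially expressed (DEGs) at a false discovery rate (FDR) below 0.05 and a fold change of at least 1.5, with edgeR's quasi-likelihood test and Benjamini-Hochberg adjustment over 15125 genes. All FDRs below come from that test. After 24 h with MEKi, 2179 genes (14.4%) were called against uncultured cells, 1240 (8.20%) higher and 939 (6.21%) lower. After 24 h with DMSO the count was 2178 (14.4%), 1346 (8.90%) higher and 832 (5.50%) lower. Scaled to total counts without a composition factor, the DMSO comparison gave 1900 higher and 547 lower, with the median gene shifted to 0.16 on the log2 scale. Both comparisons use the same 4 uncultured libraries, so their lists share error, and the difference between them was tested as MEKi against DMSO. That test called 495 genes (3.27%), 195 (1.29%) higher and 300 (1.98%) lower with MEKi. Where groups are said below not to overlap, the share of all genes without overlap between the 4 and 4 libraries was 21.2% for MEKi against uncultured cells, 22.1% for DMSO against uncultured cells and 8.85% for MEKi against DMSO.

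Of the genes called with MEKi, 1333 were called in the same direction with DMSO, 792 higher and 541 lower, which is 61.2% of either set. For 1280 of them there was no call between MEKi and DMSO, and these are named retained below. A further 53 were retained at a different size, 38 of them farther from uncultured cells with MEKi and 15 nearer. There were 120 genes called with DMSO, not with MEKi, and different between both (81 higher and 39 lower with DMSO), and 190 called with MEKi, not with DMSO, and different between both (77 higher and 113 lower). Another 19 moved in opposite directions, 17 of them lower with MEKi and higher with DMSO. This last count was 6 without uncultured M2 or M3, 8 without M5 and 10 without M6, DMSO M4 or MEKi M6. The other 637 genes called with MEKi, and 706 called with DMSO, had a call in 1 comparison with uncultured cells and no call between MEKi and DMSO, so they cannot be assigned.

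**Figure D1:**
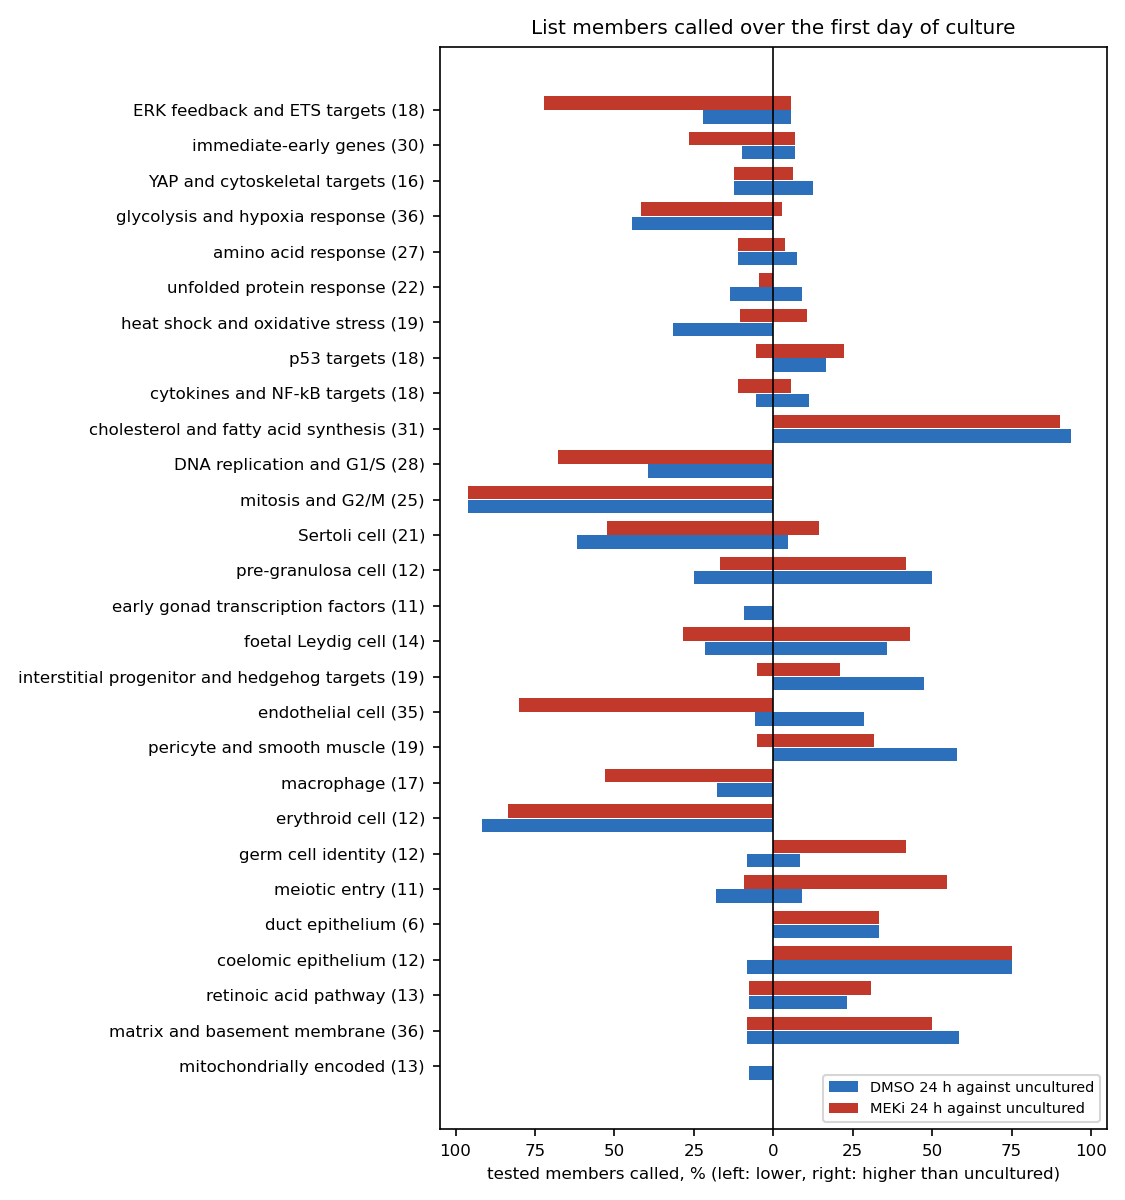
Share of the tested members of 28 gene lists called lower (left) or higher (right) than uncultured cells after 24 h with MEKi (red) or DMSO (blue), in percent, with the number of tested members in brackets. Cholesterol, mitotic, erythroid and matrix genes have bars of like length with both. Those of the ERK output, endothelial, macrophage, DNA replication, germ cell and meiotic lists differ in length. Between MEKi and DMSO only 1 of 17 macrophage genes and 0 of 28 replication genes were called.

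The output of ERK fell below the level of fresh tissue with MEKi. Of 18 tested ERK feedback inhibitors, ETS factors and other ERK targets, 13 fell and 1 rose. Their median log2 fold change was −1.0, against 0.02 over all genes tested. With DMSO 4 fell and 1 rose, with a median of −0.20, and 2 fell without uncultured M2, with total-count scaling or with no filter on low counts. Between MEKi and DMSO 11 of the 18 were lower with MEKi. The genes that fell with MEKi included the phosphatases *Dusp4*, *Dusp5* and *Dusp6*, which switch off MAP kinases, the receptor signalling inhibitors *Spry1*, *Spry2*, *Spry4*, *Spred1* and *Spred2*, and the ETS factors *Etv1*, *Etv4* and *Etv5*. The gene that rose with both treatments was *Bcl2l11*, which encodes the pro-apoptotic protein BIM.

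*Etv5* (ENSMUSG00000013089.15, GRCm39 chromosome 16, 22200052 to 22259662) encodes an ETS factor expressed downstream of FGF signalling. It had 63.1, 68.3, 81.3 and 64.8 CPM in the uncultured libraries, 15.7, 13.9, 13.4 and 11.8 with MEKi, and 45.6, 38.3, 48.1 and 32.7 with DMSO. The 3 groups did not overlap, with DMSO between fresh tissue and MEKi. The log2 fold change from uncultured cells was −2.34 (SE 0.208, FDR 6.13e-13) with MEKi and −0.74 (SE 0.175, FDR 0.0011) with DMSO, and that between MEKi and DMSO was −1.60 (SE 0.208, FDR 2.07e-07). *Dusp6*, the ERK phosphatase, had 95.9, 114, 94.7 and 81.3 CPM uncultured and 14.7, 20.6, 26.7 and 16 with MEKi, again without overlap. The log2 fold change was −2.28 with MEKi (FDR 6.47e-12) and −0.42 with DMSO, where it was not called (FDR 0.0884). *Spry4* fell by 2.21 and *Phlda1* by 1.46 on the log2 scale with MEKi, and both were lower than with DMSO.

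The immediate-early genes, which growth factors, stress and tissue handling induce within minutes, had calls in both directions with each treatment. Of 30 tested, 8 fell and 2 rose with MEKi, with a median of −0.42, while 3 fell and 2 rose with DMSO, with a median of 0.07. Compared with DMSO, 7 were lower with MEKi and none was higher, with a median of −0.33. Tested for a change beyond 1.5-fold, the 8 became 5 by glmTreat and 1 by voom with treat, and the 7 became 4 and 1. Among the 8 lower than in fresh tissue in the main test were *Egr1*, *Egr2* and *Egr3*, zinc finger factors of the growth factor response. *Egr2* had 17.9, 18.2, 24.4 and 14.8 CPM uncultured, 20, 20.1, 25.7 and 17.9 with DMSO and 2.44, 2.66, 5.14 and 2.73 with MEKi. The DMSO libraries overlapped the uncultured ones, and the MEKi libraries lay below both. From fresh tissue it changed by −2.44 (SE 0.391, FDR 2.8e-06) on the log2 scale with MEKi, against 0.17 (FDR 0.698) with DMSO. *Egr1* fell by 0.82 with MEKi, whereas *Fos*, *Jun*, *Atf3*, *Ier2* and *Ier3* had no call. For *Fos* the log2 fold change with MEKi was −0.42 (SE 0.221, FDR 0.185), with libraries from 178 to 445 CPM.

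**Figure D2:**
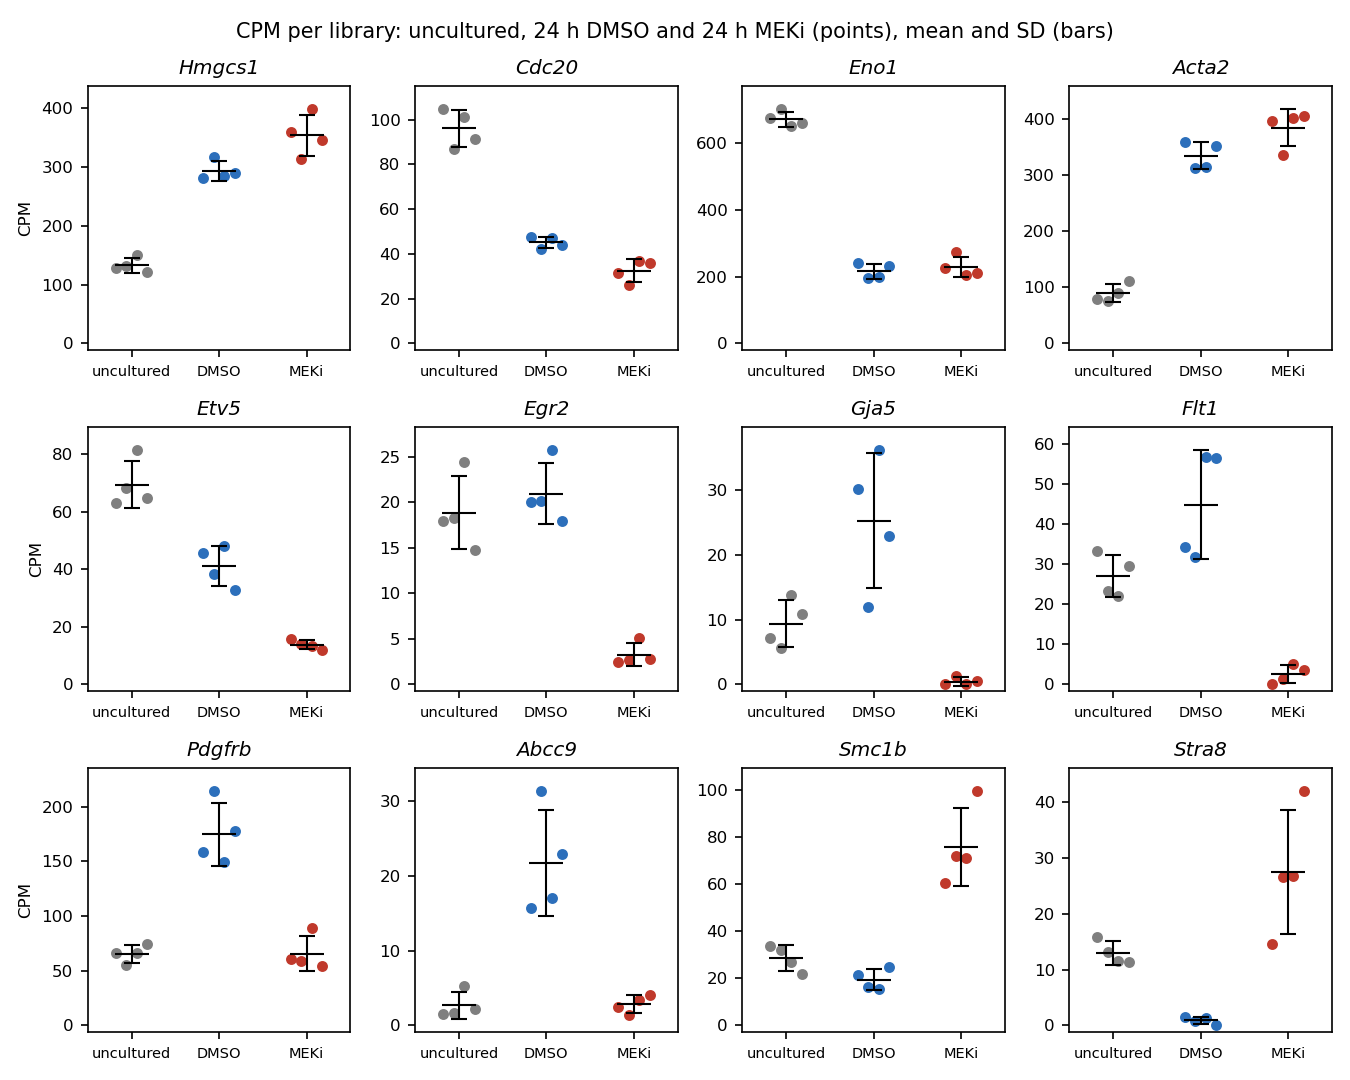
CPM in each library (points) with the mean and SD (bars, n = 4) for 12 genes in uncultured, DMSO and MEKi cells, linear axes from 0. *Hmgcs1*, *Cdc20*, *Eno1* and *Acta2* left the uncultured level with both treatments, *Etv5*, *Egr2*, *Gja5* and *Flt1* dropped with MEKi, *Pdgfrb* and *Abcc9* were high with DMSO, and *Smc1b* and *Stra8* were highest with MEKi.

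The sterol pathway rose with MEK blocked as it did with DMSO. Of 31 tested genes of cholesterol and fatty acid synthesis, 28 rose with MEKi and 29 with DMSO, and none fell in either comparison. The median log2 fold change was 1.17 with MEKi and 1.06 with DMSO. No member was called between MEKi and DMSO, with a median difference of 0.06. The genes that rose run from the mevalonate steps (*Hmgcs1*, *Mvk*, *Mvd*) and squalene formation (*Fdft1*, *Sqle*) to the last steps to cholesterol (*Dhcr7*), and include the desaturase *Scd1*. *Srebf1*, *Scd2* and *Elovl6* had no call with MEKi.

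*Hmgcs1* (ENSMUSG00000093930.2, GRCm39 chromosome 13, 120151915 to 120170470) encodes the synthase that makes HMG-CoA. It had 127, 132, 151 and 121 CPM uncultured, 359, 314, 397 and 345 with MEKi and 281, 317, 284 and 290 with DMSO. Each cultured library lay above all 4 uncultured ones, and 1 MEKi library lay within the DMSO range. The log2 fold change was 1.42 (SE 0.1, FDR 2.9e-16) with MEKi and 1.14 (SE 0.0995, FDR 3.75e-13) with DMSO, and that between them was 0.28 (SE 0.0947, FDR 0.0871). *Scd1*, which puts the first double bond into saturated fatty acids, rose most on this list, from 5.13, 1.71, 2.87 and 3.04 CPM uncultured to 32.8, 42.5, 40.4 and 30.1 with MEKi. It rose by 3.48 (SE 0.297, FDR 1.57e-13) with MEKi and 2.93 with DMSO. *Fdft1* rose by 1.57 and *Sqle* by 1.41 with MEKi.

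Genes of this pathway carry sterol regulatory elements, read by SREBP factors, often beside CCAAT boxes bound by NF-Y. The RefSeq promoter table (GRCm38.p6) held 21 of the 31 tested members with 26 promoters, and the 250 bases before each start were searched on both strands. TCACNCCA, one form of the sterol element, was found in 3 of the 26 (11.5%) and in 3.67% of all 32851 promoters. CCAAT was found in 17 (65.4%) and in 33.8% of all, and both together in 11.5% and 1.29%. A match describes these letters and not a site in use. Among the members reported here with a single promoter that held both, those with the smallest FDR with MEKi were *Hmgcs1* (chr13:119690101-119690350, plus strand) and *Msmo1*, a methylsterol oxidase (chr8:64733579-64733828, minus strand). They are shown to set both elements beside each other, 5′ to 3′ along the gene's strand, with the elements or their reverse complements in capitals.
Hmgcs1: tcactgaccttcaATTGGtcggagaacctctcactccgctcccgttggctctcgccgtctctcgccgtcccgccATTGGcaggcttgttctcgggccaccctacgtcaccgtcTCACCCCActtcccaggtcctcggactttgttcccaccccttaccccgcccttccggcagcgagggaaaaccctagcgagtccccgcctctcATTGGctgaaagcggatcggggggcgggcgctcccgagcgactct
Msmo1: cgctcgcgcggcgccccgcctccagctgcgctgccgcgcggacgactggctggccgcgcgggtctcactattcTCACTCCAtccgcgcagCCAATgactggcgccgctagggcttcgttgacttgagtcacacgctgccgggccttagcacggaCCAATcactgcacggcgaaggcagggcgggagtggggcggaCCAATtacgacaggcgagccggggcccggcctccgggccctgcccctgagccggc
*Msmo1* rose from 26.2, 29, 19.1 and 17.4 CPM in uncultured cells to 69, 51.1, 84.6 and 70.2 with MEKi, with no overlap. On the log2 scale it rose by 1.62 (SE 0.173, FDR 1.92e-10) with MEKi and by 1.74 with DMSO.

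Transcripts of dividing cells fell with and without MEK activity. Of 25 tested genes of mitosis and G2/M, 24 fell with MEKi and 24 with DMSO, the exception in both being *Bub3*. The median log2 fold change was −1.19 with MEKi and −0.92 with DMSO. None was called between MEKi and DMSO, with a median of −0.23. Of 28 genes of DNA replication and G1/S, 19 fell with MEKi and 11 with DMSO, and none of the 28 was called between them, so the extra 8 are not shown to differ. Their medians were −0.78 and −0.58, and that between MEKi and DMSO was −0.22. With total-count scaling 6 fell with DMSO. Tested for a change beyond 1.5-fold, 5 fell with MEKi and 1 with DMSO by glmTreat, and 1 and 0 by voom with treat.

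*Cdc20* (ENSMUSG00000006398.15, GRCm39 chromosome 4, 118290098 to 118294610), an activator of the anaphase-promoting complex, had 105, 87, 101 and 91.3 CPM uncultured. It had 31.3, 25.9, 37 and 36 with MEKi and 47.4, 42.3, 47.1 and 43.9 with DMSO. Each group was apart from the other two, with MEKi lowest. The log2 fold change was −1.54 (SE 0.166, FDR 2.26e-10) with MEKi and −1.09 (SE 0.154, FDR 2.38e-07) with DMSO, and that between them, −0.45 (SE 0.168, FDR 0.123), did not pass. *Cenpe*, a kinesin of the kinetochore, and *Nusap1*, a spindle protein, fell by 1.09 and 1.27. *Mcm3*, a subunit of the replicative helicase, fell from 158, 179, 144 and 136 CPM to 78.2, 66.4, 88 and 71.6 with MEKi, a log2 fold change of −1.01 (FDR 6.87e-10) against −0.69 with DMSO. *Rrm2*, which makes deoxyribonucleotides, fell by 0.92 with MEKi and 0.89 with DMSO.

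Promoters of G2/M genes commonly pair CCAAT boxes with a cell cycle genes homology region (CHR), to which the DREAM and MuvB complexes bind. Of the tested members 21 matched, with 22 promoters. CCAAT was found in 20 (90.9%) against 33.8% of all promoters, and the CHR letters TTTGAA in 8 (36.4%) against 16%. Those 8 also held CCAAT, against 5.55% of all promoters with both. By the rule used for the sterol genes, the promoters of *Cdc20* (chr4:118437344-118437593, minus strand) and *Top2a*, a DNA topoisomerase (chr11:99024190-99024439, minus strand), are shown from the same RefSeq build, with both elements in capitals.
Cdc20: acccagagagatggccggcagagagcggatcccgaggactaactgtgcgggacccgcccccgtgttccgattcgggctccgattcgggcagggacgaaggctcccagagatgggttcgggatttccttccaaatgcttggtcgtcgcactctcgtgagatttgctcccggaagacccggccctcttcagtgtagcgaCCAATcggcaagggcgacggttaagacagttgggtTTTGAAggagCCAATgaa
Top2a: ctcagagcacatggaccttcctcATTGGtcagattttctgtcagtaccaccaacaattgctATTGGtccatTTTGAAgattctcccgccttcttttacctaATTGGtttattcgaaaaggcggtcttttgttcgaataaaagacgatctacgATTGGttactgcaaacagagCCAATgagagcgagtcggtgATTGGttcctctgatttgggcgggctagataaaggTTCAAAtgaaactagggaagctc
*Top2a* fell from 656, 652, 601 and 584 CPM uncultured to 359, 288, 359 and 379 with MEKi, with no overlap, a log2 fold change of −0.85 (SE 0.098, FDR 1.68e-09), and by 0.70 with DMSO.

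Glycolytic genes and targets of the hypoxia response fell with both treatments. Of 36 tested, 15 fell and 1 rose with MEKi, 16 fell with DMSO, and the medians were −0.43 and −0.41. Between MEKi and DMSO only *Pfkp*, a phosphofructokinase, was called, lower with MEKi, and this call was lost without DMSO M4 and with the replicate number as a block. The falls cover glycolysis from the glucose transporter *Slc2a1* to *Ldha*, which reduces pyruvate to lactate, and include the hypoxia targets *Pdk1*, *Bnip3* and *Ankrd37*. *Eno1*, an enolase (ENSMUSG00000063524.13, GRCm39 chromosome 4, 150321073 to 150337027), had 674, 700, 651 and 659 CPM uncultured, 227, 273, 206 and 212 with MEKi and 240, 194, 199 and 231 with DMSO. The cultured groups overlapped and lay far below fresh tissue. On the log2 scale it fell by 1.55 (SE 0.125, FDR 2.22e-14) with MEKi and by 1.64 (SE 0.124, FDR 3.35e-15) with DMSO. *Ldha* fell by 1.38 and *Pkm*, pyruvate kinase, by 0.80 with MEKi.

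Extracellular matrix genes rose. Of 36 tested genes of matrix and basement membrane, 18 rose and 3 fell with MEKi, 21 rose and 3 fell with DMSO, and none was called between them. The medians were 0.59 and 0.68. Those that rose included fibrillar collagens, the microfibril collagen VI chains *Col6a1*, *Col6a2* and *Col6a3*, and the small proteoglycans *Dcn* and *Lum*. *Dcn* (ENSMUSG00000019929.16, GRCm39 chromosome 10, 97315275 to 97358155) encodes decorin, which binds collagen fibrils, and had 69.2, 67.7, 74.1 and 89.6 CPM uncultured, 287, 349, 353 and 314 with MEKi and 372, 427, 321 and 388 with DMSO. Its log2 fold change was 2.11 (SE 0.128, FDR 1.09e-18) with MEKi and 2.32 (SE 0.127, FDR 1.62e-20) with DMSO, with the cultured libraries well above the rest. *Col1a1* rose by 1.71, *Col6a1* by 1.60 and *Col6a2* by 1.56 with MEKi. The 3 that fell with both were *Col18a1*, *Sparc* and *Fbln2*.

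Markers of the coelomic epithelium, which covers the gonad, rose as well. Of 12 tested, 9 rose with MEKi (median 0.91), and 9 rose and 1 fell with DMSO (median 0.89). Between MEKi and DMSO 2 were higher with MEKi (median 0.22), and the 2 became 1 without DMSO M3. *Krt19*, a keratin of simple epithelia, had 11.3, 14.2, 10.5 and 16.1 CPM uncultured and 67.5, 69.7, 77.1 and 61.5 with MEKi, with no overlap. It rose by 2.40 (SE 0.189, FDR 1.1e-14) with MEKi and 2.17 with DMSO. *Upk3b*, a uroplakin of mesothelial surfaces, rose by 1.54 with MEKi and 1.23 with DMSO.

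**Figure D3:**
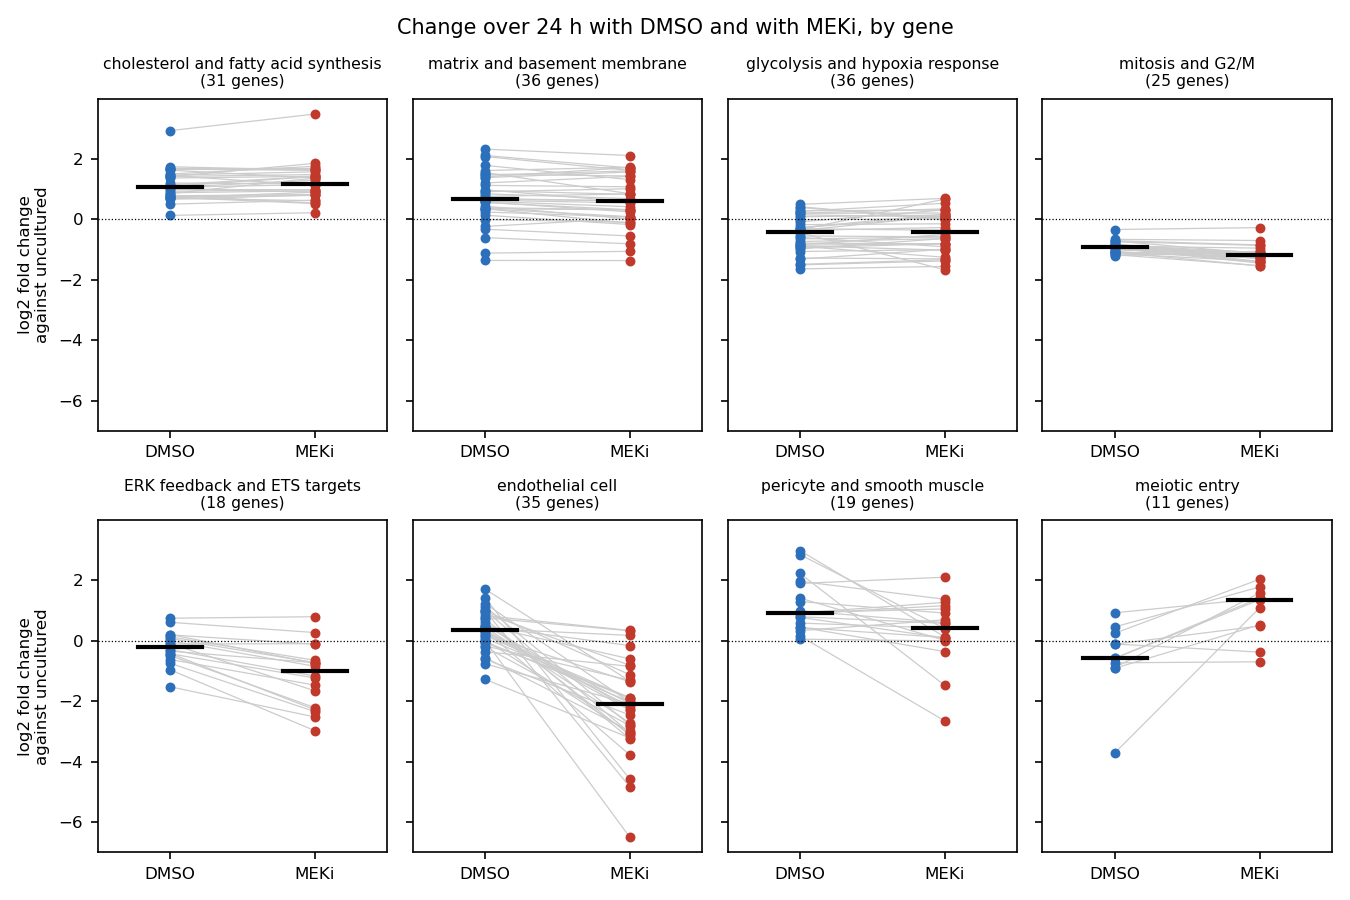
Log2 fold change from uncultured cells after 24 h with DMSO (blue) and with MEKi (red) for each tested member of 8 lists, each gene joined by a line, with the list median as a black bar. The medians of the upper 4 lists lie near each other with DMSO and MEKi (1.06 and 1.17 for cholesterol and fatty acid synthesis), while those of the lower 4 differ (0.35 and −2.08 for the endothelial list). Both columns of a panel share the uncultured libraries.

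Of the 28 lists, that of the endothelium had the largest median difference between MEKi and DMSO. Of 35 tested endothelial genes, 28 fell and none rose with MEKi, with a median of −2.08. With DMSO 10 rose and 2 fell, with a median of 0.35, and between MEKi and DMSO 29 were lower with MEKi, with a median of −2.41. The count of 10 was 5 without uncultured M6, DMSO M4 or DMSO M5 and 6 without uncultured M2 or M3. The genes that fell with MEKi include the VEGF receptors *Flt1*, *Kdr* and *Flt4*, the angiopoietin receptor *Tek* with *Tie1*, the junction genes *Cdh5*, *Pecam1* and *Cldn5*, and the transcription factors *Erg*, *Fli1*, *Sox7* and *Sox17*. The summed level of the list was 575 to 719 CPM in uncultured libraries, 640 to 984 with DMSO and 190 to 207 with MEKi. *Esm1* had 37 counts over the uncultured libraries and 0 over the MEKi libraries, at least 13.2-fold lower against a floor of 3 counts over the 4 libraries.

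*Gja5* (ENSMUSG00000057123.14, GRCm39 chromosome 3, 96812009 to 96984732), the connexin 40 gene of arterial endothelium, had 7.18, 5.69, 13.9 and 10.9 CPM uncultured. With DMSO it had 30.3, 11.9, 36.2 and 22.9, and with MEKi 0, 1.33, 0 and 0.456. The MEKi libraries lay below fresh tissue, and 3 of the 4 DMSO libraries lay above it. The log2 fold change was −4.57 (SE 0.634, FDR 1.31e-07) with MEKi and 1.41 (SE 0.323, FDR 0.000798) with DMSO, and between the treatments it was −5.99 (SE 0.549, FDR 2.74e-11). The MEKi value rests on 3 counts against 78, a ratio of 27.8 with a 95% counting interval of 9.18 to 138. *Gja4*, its partner connexin, likewise moved in opposite directions, by −3.05 with MEKi and 1.01 with DMSO.

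*Flt1* had 33.3, 23.3, 22 and 29.6 CPM uncultured and 0, 1.33, 5.14 and 3.65 with MEKi, with no overlap, and fell by 3.24 (SE 0.403, FDR 1e-08). Its rise with DMSO, 0.72, was at the threshold (FDR 0.0494) and was lost without any 1 of the uncultured libraries, DMSO M4 or DMSO M5. The calls of *Sox7*, *Dll4* and *Itga2* with DMSO were lost in a like way, while those of *Gja4* and *Gja5* held with each library left out. *Tie1* had 36.4, 17.1, 24.4 and 26.5 CPM uncultured, 20.3, 18.9, 38.3 and 28.4 with DMSO and 3.91, 2.66, 2.06 and 4.1 with MEKi. Here DMSO overlapped fresh tissue and MEKi lay below both, with log2 fold changes of −3.04 (FDR 5.71e-09) and 0.03 (FDR 0.957). *Cd34* and *Plvap*, a diaphragm protein of fenestrated capillaries, fell with both treatments and farther with MEKi, *Cd34* by 2.45 against 0.61 and *Plvap* by 3.21 against 1.27. The call of *Cd34* with DMSO was lost without uncultured M6, DMSO M2 or DMSO M3.

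Of 19 tested pericyte and smooth muscle genes, 6 rose and 1 fell with MEKi (median 0.42), 11 rose with DMSO (median 0.92), and 7 were lower with MEKi than with DMSO (median −0.38). The contractile genes *Acta2*, *Tagln*, *Myh11* and *Mylk* rose with both. *Acta2* (ENSMUSG00000035783.9, GRCm39 chromosome 19, 34217737 to 34232990), smooth muscle actin, had 79.5, 75.7, 89.9 and 111 CPM uncultured, 395, 336, 401 and 405 with MEKi and 358, 312, 314 and 351 with DMSO. Its log2 fold change was 2.10 (SE 0.134, FDR 4.69e-18) with MEKi and 1.90 (SE 0.132, FDR 2.68e-16) with DMSO, and the cultured groups overlapped.

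The 7 that were lower with MEKi than with DMSO were the pericyte markers *Rgs5*, *Cspg4*, *Pdgfrb*, *Mcam*, *Abcc9*, *Kcnj8* and *Ndufa4l2*. *Abcc9* (ENSMUSG00000030249.15, GRCm39 chromosome 6, 142533588 to 142648571), a subunit of the potassium channel of mural cells, had 1.54, 1.71, 5.26 and 2.17 CPM uncultured, 2.44, 1.33, 3.42 and 4.1 with MEKi and 15.7, 31.3, 17.1 and 22.9 with DMSO. Its MEKi and uncultured libraries overlapped, at a log2 fold change of 0.13 (FDR 0.898), while it rose by 2.98 (SE 0.386, FDR 3.06e-08) with DMSO. *Pdgfrb*, the PDGF receptor by which endothelium recruits pericytes, was named after its values were seen. It had 66.2, 55.2, 66 and 74.8 CPM uncultured, 60.6, 58.5, 89.1 and 54.2 with MEKi and 159, 214, 149 and 178 with DMSO. From uncultured cells the log2 fold change was 0.01 (SE 0.182, FDR 0.971) with MEKi, 1.41 (FDR 5.5e-09) with DMSO and −1.40 (FDR 3.43e-08) between them. *Rgs5* fell below fresh tissue with MEKi, by 2.65 (FDR 4.99e-06), and had no call with DMSO.

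Sertoli cell genes fell over the first day, with MEKi as with DMSO. Of 21 tested, 11 fell and 3 rose with MEKi (median −0.70), and 13 fell and 1 rose with DMSO (median −0.87). The summed level of the list was 2876 to 3287 CPM uncultured, 1478 to 2373 with MEKi and 1531 to 2391 with DMSO. *Sox9*, the factor that commits supporting cells to Sertoli fate, was named after its values were seen. It had 650, 675, 692 and 634 CPM uncultured and 465, 458, 258 and 459 with MEKi, and fell by 0.70 (SE 0.179, FDR 0.00283). MEKi M4, at 258 CPM, lay apart from the other MEKi libraries, so the size of this fall depends on it. Without MEKi M4 the 11 genes of the list that fell with MEKi became 9. *Dhh*, the hedgehog ligand that Sertoli cells send to the interstitium, fell by 1.17 with MEKi and 1.53 with DMSO. *Inhbb*, an activin and inhibin subunit, fell by 1.15, and *Col9a3*, a collagen of early cords, by 1.57 with MEKi. *Amh* had a mean of 8.56 CPM in uncultured cells and was not called in either comparison.

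*Gdnf* (ENSMUSG00000022144.4, GRCm39 chromosome 15, 7840327 to 7867060), a growth factor for germline stem cells, had 42.1, 43.8, 53.5 and 47.8 CPM uncultured, 14.2, 6.64, 7.19 and 16.9 with MEKi and 21.8, 20.1, 21.3 and 21 with DMSO. All 4 MEKi libraries lay below the DMSO libraries, and these below fresh tissue. Its log2 fold change was −2.05 (SE 0.251, FDR 6.24e-09) with MEKi, −1.16 (FDR 7.45e-05) with DMSO and −0.90 (FDR 0.0282) between them. That last call was lost without DMSO M2, DMSO M4, MEKi M2 or MEKi M4. *Cldn11*, a tight junction claudin named after its values were seen, had 34.9, 39.3, 32.5 and 32.6 CPM uncultured, 83.1, 79, 65.1 and 78.9 with MEKi and 54.2, 27.8, 32.2 and 24.5 with DMSO. It rose by 1.13 (SE 0.207, FDR 2.91e-05) with MEKi alone. Between MEKi and DMSO 3 Sertoli genes were higher and 1 lower with MEKi, and the 3 became 5 without DMSO M2 or MEKi M4.

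Of 12 pre-granulosa genes, 5 rose and 2 fell with MEKi (median 0.68) and 6 rose and 3 fell with DMSO (median 0.59). Between MEKi and DMSO 2 were higher with MEKi, *Runx1* and *Irx3*, both named after their values were seen, and the 2 became 0 without MEKi M6. The WNT genes *Wnt4* and *Rspo1*, which drive ovary development, and the WNT target *Axin2* rose with both, by 1.03, 1.15 and 1.39 with MEKi. *Wnt4* had 60.5, 51.2, 59.8 and 43.9 CPM uncultured, 112, 120, 104 and 104 with MEKi and 116, 148, 106 and 110 with DMSO, with no overlap between fresh and cultured tissue. *Lgr5*, a receptor for R-spondins, fell from 34.9, 50.1, 44.9 and 37.4 CPM to 7.82, 5.98, 3.08 and 5.47 with MEKi, a log2 fold change of −2.94 (SE 0.34, FDR 1.54e-09) against −2.09 with DMSO. *Foxl2*, the ovarian fate factor, named after its values were seen, was low, with 0.569 to 1.54 CPM uncultured and 4.8 to 7.75 with MEKi, and rose by 2.47 (FDR 0.000707). With DMSO it rose by 1.87 (FDR 0.0119), a call lost without DMSO M3, and between MEKi and DMSO it had 0.60 (FDR 0.449).

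Foetal Leydig genes went both ways. Of 14 tested, 6 rose and 4 fell with MEKi, and 5 rose and 3 fell with DMSO. Compared with DMSO, 1 was higher and 2 were lower with MEKi, and the 2 became 0 without DMSO M5, MEKi M1 or MEKi M2. *Cyp11a1*, which cleaves the cholesterol side chain in the first step of steroid synthesis, had 28.7, 27.3, 31.1 and 41.3 CPM uncultured and 115, 102, 170 and 122 with MEKi, and rose by 1.99 (SE 0.279, FDR 1.75e-07) against 2.13 with DMSO. *Hsd3b1* (ENSMUSG00000027871.16, GRCm39 chromosome 3, 98757367 to 98767116), the next enzyme of the pathway, also rose by 1.99 with MEKi, and its close paralog *Hsd3b6* fell by 2.91. Both were called in the same direction with DMSO. With 1 library left out, the DMSO values were 2.23 to 2.64 for *Hsd3b1* and −5.32 to −3.63 for *Hsd3b6*. These 2 share sequence, so how reads were split between them is uncertain. *Cyp17a1*, needed for androgens and named after its values were seen, had 25.7, 27.3, 33.9 and 90.4 CPM uncultured, 36.2, 36.5, 66.8 and 55.2 with MEKi and 82, 85.8, 95.2 and 122 with DMSO. It rose by 1.09 (FDR 0.000726) with DMSO and had 0.14 (FDR 0.771) with MEKi. Uncultured M6, at 90.4 CPM, lay apart from the other uncultured libraries at 25.7 to 33.9, and the size of both values depends on it. The log2 fold change between MEKi and DMSO was −0.95 (FDR 0.0114), a call lost without DMSO M5, MEKi M1 or MEKi M2. Of 19 interstitial progenitor genes and hedgehog targets, 4 rose and 1 fell with MEKi (median 0.35) and 9 rose with DMSO (median 0.56). Between MEKi and DMSO 1 was lower with MEKi and none was higher. Those that rose with MEKi included *Pdgfra*, *Vsnl1* and *Boc*, the last of which lost its call without uncultured M2, uncultured M3 or MEKi M4, and the count of 4 was 7 without uncultured M6. The hedgehog target *Gli1* rose with DMSO and had no call with MEKi, and it was not called between MEKi and DMSO.

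Germ cell transcripts were present at a low level in this GFP-negative sort. Of 12 tested genes of germ cell identity, 5 rose with MEKi (median 0.77), while 1 rose and 1 fell with DMSO (median −0.20). Of 11 tested genes of meiotic entry, 6 rose and 1 fell with MEKi (median 1.36), and 1 rose and 2 fell with DMSO (median −0.57). Between MEKi and DMSO 3 identity genes were higher and 1 was lower, and 5 meiotic genes were higher. The summed levels with MEKi were 343 to 635 CPM for identity and 211 to 357 CPM for meiotic entry, against 251 to 389 and 163 to 200 CPM uncultured. *Pou5f1*, whose regulatory sequence drives the GFP of this line, fell under the filter on low counts, with 1.3 to 4.1 CPM uncultured and 2.4 to 10.5 with MEKi. Whether germ cells in the sort took part in these changes was not tested.

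*Smc1b* (ENSMUSG00000022432.7, GRCm39 chromosome 15, 84948882 to 85016204), a cohesin subunit of meiotic chromosomes, had 33.9, 31.9, 26.8 and 21.7 CPM uncultured, 60.6, 71.7, 70.9 and 99.4 with MEKi and 21.4, 16.2, 15.5 and 24.9 with DMSO. The MEKi libraries lay above both other groups, which overlapped. The log2 fold change was 1.42 (SE 0.243, FDR 1.04e-05) with MEKi, −0.57 (FDR 0.108) with DMSO and 1.99 (FDR 3.27e-08) between them. *Stra8*, the retinoic acid target that starts meiosis, was named after its values were seen. It had 15.9, 13.1, 11.5 and 11.3 CPM uncultured, 14.7, 26.6, 26.7 and 41.9 with MEKi and 1.43, 0.746, 1.34 and 0 with DMSO. One MEKi library lay within the uncultured range, and all DMSO libraries lay far below. It rose by 1.09 (SE 0.382, FDR 0.0336) with MEKi, fell by 3.70 (FDR 3.23e-07) with DMSO, and differed by 4.79 (FDR 1.17e-09) between them. *Dazl*, an RNA-binding protein of germ cells, rose by 0.90, and *Sycp3* and *Sycp1*, of the synaptonemal complex, by 2.04 and 1.58, each with MEKi and not with DMSO.

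Among 13 genes of the retinoic acid pathway, 4 rose and 1 fell with MEKi, and 3 rose and 1 fell with DMSO, with 2 higher and 2 lower between them. The 4 became 2 without uncultured M3 or MEKi M6. Of the calls between MEKi and DMSO, the 2 higher became 0 without DMSO M2 or MEKi M1, and the 2 lower became 0 without MEKi M1 or MEKi M2. *Cyp26b1*, the enzyme that clears retinoic acid in the foetal testis, had 107, 107, 106 and 116 CPM uncultured, 36.7, 43.2, 64.1 and 36.5 with MEKi and 72.4, 71.3, 69 and 74.3 with DMSO. The 3 groups did not overlap. It fell by 1.25 (SE 0.172, FDR 9.76e-08) with MEKi and by 0.61 (FDR 0.00391) with DMSO, and the log2 fold change between them was −0.65 (FDR 0.0146). The call with DMSO was lost without uncultured M6 or DMSO M4 and with total-count scaling, and that between MEKi and DMSO without MEKi M1, M2 or M6. The genes higher with MEKi than with DMSO were *Stra6*, the retinol transporter, and *Dhrs3*, which returns retinal to retinol. *Stra6* rose by 1.61 and *Dhrs3* by 1.05 with MEKi, and neither was called with DMSO. The call of *Stra6* between MEKi and DMSO was lost without any 1 of the MEKi and DMSO libraries other than MEKi M6, and that of *Dhrs3* without DMSO M2, DMSO M5, MEKi M1, MEKi M2 or MEKi M6.

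Of 12 tested erythroid genes, 10 fell with MEKi (median −1.78) and 11 with DMSO (median −2.01), and none was called between them. *Slc4a1*, the anion exchanger of the red cell membrane, had 29.8, 37, 37.8 and 44.4 CPM uncultured and 4.89, 0, 0 and 1.37 with MEKi, and fell by 4.57 (SE 0.573, FDR 1.2e-08). Some globin genes of 1 cluster are close copies, so their reads may be split. Of 17 macrophage genes, 9 fell with MEKi (median −1.62) and 3 with DMSO (median −0.37), and 1, the complement gene *C1qc*, was called between them. *C1qc* had 8.21, 14.2, 14.3 and 12.6 CPM uncultured, 1.47, 0, 2.4 and 0.912 with MEKi and 12.1, 6.71, 7.28 and 2.72 with DMSO. It fell by 3.14 (SE 0.586, FDR 4.09e-05) with MEKi, below every other library. Of the macrophage genes, *Csf1r*, the receptor for colony-stimulating factor, fell by 1.62 with MEKi and was named after its values were seen.

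**Figure D4:**
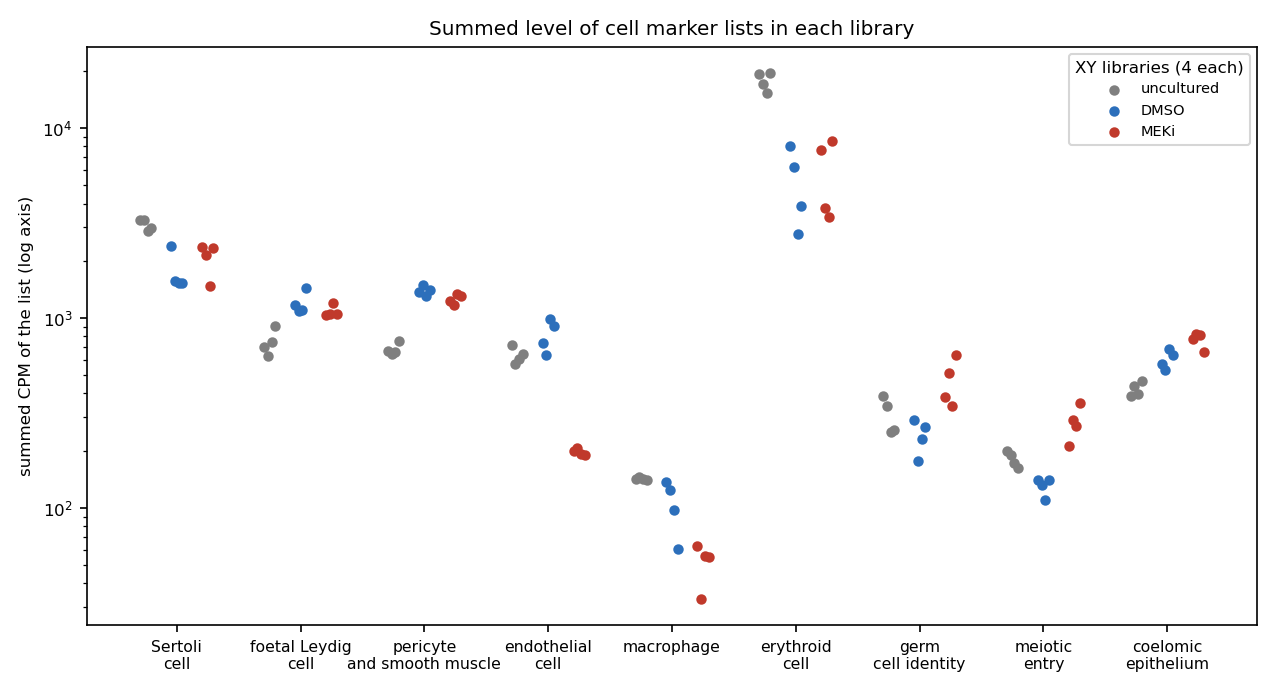
Summed CPM of 9 cell marker lists in each library on a log axis (grey uncultured, blue DMSO, red MEKi, 4 libraries each). The MEKi libraries lie apart and low for the endothelial list (190 to 207 CPM against 575 or more in the other groups), high for meiotic entry, and beside the DMSO libraries for erythroid, pericyte and smooth muscle, and Leydig lists.

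The largest changes with MEKi lay partly outside these lists. Among the 15 largest increases were *Stk32a*, a kinase with 0 counts over the uncultured libraries and 94 over the MEKi libraries, at least 29.3-fold higher against the floor of 3 counts. Others that rose alike with DMSO were *Adam23*, a surface protein that binds integrins (4.46 with MEKi and 4.28 with DMSO on the log2 scale), *Angpt2*, an angiopoietin (3.93 and 4.26), *Aspn*, a proteoglycan (3.83 and 3.87), and *Lgi2* (3.58 and 3.76). *Adam23* had 1.03, 0.569, 2.87 and 2.17 CPM uncultured and 34.2, 29.2, 63.7 and 24.6 with MEKi. The largest decreases took in red cell genes (*Slc4a1*, *Kel*), which also fell with DMSO, and endothelial genes (*Gja5*, *Sox7*, *Myct1*). They also held *Pnmt*, which makes adrenaline, with a log2 fold change of −4.49 (FDR 1.98e-06) from 150 counts over the uncultured libraries. *Pnmt* was called lower with DMSO too, with 3 counts over the DMSO libraries and 7 over the MEKi libraries.

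Among genes retained at a different size, those that rose farther with MEKi included *H2-Q10*, *Rarres1*, *Wfdc2* and *Spock2*. *H2-Q10*, a secreted class I histocompatibility gene, had 0, 1.71, 1.43 and 1.3 CPM uncultured, 29.8, 37.2, 25 and 52.9 with MEKi and 5.71, 3.73, 6.51 and 7 with DMSO, and rose by 4.96 (SE 0.423, FDR 1.63e-13) against 2.30. It belongs to a family of close copies, so its count is uncertain. *Wfdc2*, a secreted epithelial protein, rose by 3.44 with MEKi and 1.84 with DMSO, and *Spock2*, a matrix proteoglycan, by 2.02 and 0.77. *Nts*, which encodes neurotensin, rose less with MEKi, from 3.08, 4.55, 3.35 and 6.52 CPM uncultured to 23, 21.2, 12 and 20.1, against 50.6, 31.1, 98.7 and 136 with DMSO. Its log2 fold change was 2.06 with MEKi and 4.14 with DMSO, and −2.07 (FDR 1.89e-06) between them.

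Among genes called with DMSO and not with MEKi, *Arhgdig* had 200, 183, 136 and 171 CPM uncultured, 123, 116, 92.5 and 149 with MEKi and 56, 35.8, 49.6 and 42.8 with DMSO. It fell by 1.91 (SE 0.158, FDR 7.58e-14) in DMSO cultures. Under MEKi the log2 value was −0.52 (FDR 0.00898), short of a 1.5-fold change, and the libraries overlapped those of fresh tissue. *Fzd9*, a WNT receptor, fell by 2.44 with DMSO and had −0.82 with MEKi (FDR 0.0848). The neurofilament genes *Nefl* and *Nefm* were also called higher with DMSO alone, and for both the call was lost without DMSO M3. Of genes called with MEKi alone, *Rhox8*, a homeobox gene of Sertoli cells, had 3.08, 2.28, 4.78 and 3.91 CPM uncultured, 23, 19.9, 8.91 and 20.1 with MEKi and 6.06, 2.73, 2.3 and 0.778 with DMSO. It rose by 2.30 (SE 0.407, FDR 1.78e-05), with the MEKi libraries above all others.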

How the data were processed

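RNA-seq of GFP-negative gonadal somatic cells was analysed from the deposited table of whole counts per gene and library. The authors made these counts with scPipe and Rsubread: reads were aligned to GENCODE GRCm39, assigned to exons, and each UMI was counted once per gene, without normalisation or pooling of replicates. The methods describe these steps for germ cell libraries, and they were taken to hold for the somatic ones. Of 42422 gene identifiers, 40391 matched GENCODE M39, which gave names and positions.

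Libraries were grouped by label, 4 per group. The MEKi library M2 is absent from the library names in the submitters' description, and was placed by its column name and the deposited library list. Without it 2075 genes were called with MEKi. Each library is a pool of gonads, and p-values measure only the spread between these libraries, which may be technical. No replicates were copies, as a chi-square of counts divided by its degrees of freedom was 1.93 to 7.69 (median 3.59) over 18 replicate pairs.

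In R 4.3.3 with edgeR 4.0.16, genes were kept with filterByExpr by group (15125), scaled by TMM and fitted by quasi-likelihood, with 40 libraries in 10 groups and 1 mean per group. DEGs passed an FDR of 0.05 (Benjamini-Hochberg) and a fold change of 1.5. CPM use the scaled library sizes. Standard errors came from the estimate and its F statistic. The script was tested on simulated counts. Intervals and floors (3 counts over the 4 libraries) cover counting error.

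Genes named were, among DEGs with a mean of at least 5 CPM in the higher group and no overlap of libraries, the 15 largest increases and decreases with MEKi and the 6 largest per pattern and direction. To these were added 2 to 4 members of each of 28 lists (607 genes) with the smallest FDR with MEKi, and genes marked as named after their values were seen. Other list members are named by their call, and a few genes are not reported here. The members and lists were chosen with earlier results of these data known, so counts over a list are descriptions. No p-value was computed for a list.

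Alternatives were RLE scaling, total-count scaling, no filter, genes with 1 CPM in 4 libraries, glmTreat, DESeq2 1.42.0, voom with quality weights and treat (limma 3.58.1, the method of the study), only the libraries of set 3, only the groups compared, thinning to 1560113 counts, the replicate number as a block, each library left out, and, added after seeing the data, the 12 XY libraries of set 3 without thinning. The FGFRi, 72 h and XX libraries entered the fit for their spread only. Promoter sequences came from the RefSeq table of GRCm38.p6, and no coordinates were converted between builds.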

Additional observations from a re-analysis of the deposited data

Results flagged for a closer look

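In 14 of 262 groups of 4 libraries tested among the genes picked by rule, 1 library lay apart from the other 3. Its gap to the nearest exceeded Dixon's critical share of the range. Genes named after their values were seen, among them *Sox9* and *Cyp17a1*, were outside this test. Chance alone flags about 1 group in 20, and 10 of the 14 were MEKi groups. The MEKi library M2 held 788 CPM of *Col1a1* (the others 714 to 726), 336 CPM of *Acta2* (395 to 405), 0.664 CPM of *C1qb* (4.45 to 5.01) and 119 CPM of *Mcm7* (140 to 142). MEKi M4 held 5.14 CPM of *Egr2* (2.45 to 2.74) and 389 CPM of *Hsd3b1* (298 to 310). MEKi M6 held 18.2 CPM of *Klk1* (8.63 to 10.3), 653 CPM of *Hbb-bt* (422 to 442) and 168 CPM of *Upk3b* (217 to 226), and MEKi M1 held 318 CPM of *Egr1* (221 to 226). Among uncultured libraries, M6 held 24.3 CPM of *Plk2* (35.8 to 36.9) and 116 CPM of *Cyp26b1* (106 to 107), M5 held 5.26 CPM of *Abcc9* (1.54 to 2.17), and M2 held 7.18 CPM of *Siglece* (15.7 to 17.1).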

How the results depend on the processing

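Against the main counts (2179 DEGs with MEKi, 2178 with DMSO and 495 between them), tests of a change beyond 1.5-fold were stricter. With glmTreat the counts were 864 (503 higher and 361 lower), 688 (447 and 241) and 157 (43 and 114), with 435 genes retained, 5 retained at a different size, 22 with DMSO alone, 89 with MEKi alone and 1 opposite. With voom and treat they were 488 (265 and 223), 421 (240 and 181) and 88 (21 and 67), with 253 retained, 0 at a different size, 15 with DMSO alone, 46 with MEKi alone and 1 opposite. Total-count scaling gave 547 genes lower with DMSO. The replicate numbers did not pair the libraries, as deviations from group means correlated at −0.156 to 0.0996 over 7 pairs with the same number and −0.159 to 0.161 over 41 others. With the replicate block the count between MEKi and DMSO was 242 (84 higher and 158 lower), with 25 retained at a different size, 50 with DMSO alone, 119 with MEKi alone and 11 opposite. That fit holds 12 libraries, and without the block the same 12 gave 182 higher and 287 lower. Leaving out single libraries, the counts were 1950 to 2183 (1075 to 1216 higher and 858 to 980 lower) with MEKi, 1798 to 2289 (1078 to 1401 and 720 to 888) with DMSO and 359 to 581 (145 to 262 and 214 to 319) between them. Over the same fits 1107 to 1300 genes were retained, 40 to 58 at a different size, 80 to 137 with DMSO alone, 154 to 218 with MEKi alone and 6 to 20 opposite. Thinned to equal totals, 1008 genes were higher and 804 lower with MEKi. No called value of the 164 genes picked by rule reversed under these alternatives. Genes named after their values were seen, and other list members named by their call, were outside this count. Of 324 such values glmTreat lost 85 and voom with treat 141, and DESeq2 and RLE scaling lost 2 and 3. The cause of these differences was not tested. At these totals a gene with few counts in a group, such as *Gja5* with 3 counts over the MEKi libraries, has a wide interval, and so does its fold change.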

Other observations

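Of 18 tested p53 targets, 4 rose and 1 fell, while 3 rose with DMSO. The 4 became 1 without uncultured M2 and 2 without MEKi M6, and the 3 became 1 without uncultured M2. The member that fell with MEKi was *Plk2*, a polo-like kinase. *Pmaip1*, which encodes the pro-apoptotic protein NOXA, rose by 2.34 on the log2 scale with MEKi (FDR 0.00232, edgeR quasi-likelihood with Benjamini-Hochberg adjustment). It was called higher with DMSO too, by 1.48 to 2.30 with 1 library left out. That call was lost without uncultured M2 or M6. Of 19 genes of heat shock and oxidative stress, 2 rose and 2 fell with MEKi and 6 fell with DMSO, and none was called between MEKi and DMSO. The metallothioneins *Mt1* and *Mt2*, which bind zinc and other metals, fell with both treatments, *Mt1* by 1.00 with MEKi and 1.01 with DMSO. The 6 became 3 with total-count scaling. Of 27 amino acid response genes, 1 rose and 3 fell with MEKi, among them the serine synthesis gene *Phgdh*, and 2 rose and 3 fell with DMSO. Of 22 genes of the unfolded protein response, 1 fell with MEKi, and 2 rose and 3 fell with DMSO. Over all genes tested, 14.4% were called with MEKi and 14.4% with DMSO. Beside that share the amino acid and unfolded protein counts are not read as results about those lists.

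Of 18 cytokines and NF-kB targets, 1 rose and 2 fell with MEKi, and 2 rose and 1 fell with DMSO. The chemokine *Cxcl12* had 131, 115, 156 and 164 CPM uncultured, 282, 272, 315 and 281 with MEKi and 297, 322, 293 and 318 with DMSO, with no overlap between fresh and cultured libraries. It rose by 1.02 with MEKi and 1.12 with DMSO. Of 16 YAP and cytoskeletal targets, 1 rose and 2 fell with MEKi, and 2 rose and 2 fell with DMSO. *Tgfb1i1*, a focal adhesion protein, rose by 1.66 with MEKi and 1.60 with DMSO, while *Ccn2* and *Amotl2* fell with both. Of 6 duct epithelium genes, 2 rose with MEKi and 2 with DMSO, and 1, *Wfdc2*, was higher with MEKi than with DMSO. Of 13 mitochondrially encoded genes, none was called with MEKi and 1 fell with DMSO. Beside the 14.4% of all genes called with each treatment, the cytokine and YAP counts are not read as results about those lists.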
